A study of Mus musculus with 4 samples.

Results

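The subject is a set of 39 genes for lysosomal hydrolases and membrane proteins in the mouse line RAW 264.7, whose cells resemble macrophages and can turn into osteoclasts under RANKL and M-CSF. The genes were taken from a list, not by a cut on measured values. That list was chosen with earlier results of these data known. Each gene was found as the probe set annotated with that 1 symbol, and where a gene had several the probe set with the highest mean was used. All 39 were found among 19938 genes on the Mouse Gene 1.0 ST array, and 38 of them exceeded 4.25 (log2) on at least 1 array. This floor is the 95th percentile of the values of 1212 odorant and vomeronasal receptor probe sets. Cathepsin H (Ctsh) was the exception and read between 3.12 and 3.24 on the 4 arrays, below the floor.

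There were 4 groups of 1 array each: unstimulated cells with a control vector, control-vector cells after 72 h with RANKL and M-CSF, unstimulated cells with a miR-155 vector, and miR-155-vector cells after 72 h with both cytokines. All groups share the parent line and a transfection. The labels do not give the promoter of the vectors, whether the cells were a clone or a pool, the level of the microRNA, or whether 20 ng/ml is the dose of each cytokine, and the series text calls the control cells wild-type. The study set out to learn what miR-155 does to osteoclast differentiation. With 1 array a group no difference between 2 arrays has a replicate error or a p-value, and the words higher and lower below describe these arrays.

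Lysosomes take in material from endocytosis, phagocytosis and autophagy and break it down at acid pH. Proteases such as the cathepsins cut proteins, glycosidases and sulfatases take apart sugar chains and glycosaminoglycans, and lipases and sphingolipid enzymes degrade membranes, while heavily glycosylated membrane proteins line the organelle. Macrophages use these enzymes to digest what they engulf. Osteoclasts send lysosomes to the plasma membrane facing bone and release their contents into the resorption space. Many lysosomal genes carry a palindromic element near their start, the CLEAR element, which is bound by the related factors Tfeb, Tfe3 and Mitf.

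The promoter sequences show which members carry this element. RefSeq windows on GRCm38.p6, from 250 bases before to 50 bases after the annotated start, were held for 33 of the 39 genes. The E-box core CACGTG occurred in 12 of these 33 genes (36.4%), against 8.09% of 27025 genes with such a window. The longer form TCACGTG, which contains the core, occurred on either strand in 11 (33.3%) against 4.29%, and GTCACGTG, which contains both, in 10 (30.3%) against 2.55%. These forms are nested and were counted separately, a match is only a run of letters, and the members are a chosen list. For the 11 genes with TCACGTG, 30 bases around 1 match follow on the strand of the gene, with all letters that belong to the motif on either strand in capitals. The match is the one nearest to and before the start among those of the longest form.
Glb1, chr9:114401018-114401047 (+): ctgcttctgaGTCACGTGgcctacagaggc
Sgsh, chr11:119355522-119355551 (-): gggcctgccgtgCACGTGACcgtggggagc
Arsa, chr15:89477423-89477452 (-): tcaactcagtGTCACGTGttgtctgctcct
Gaa, chr11:119267811-119267840 (+): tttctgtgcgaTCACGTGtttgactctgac
Gla, chrX:134601182-134601211 (-): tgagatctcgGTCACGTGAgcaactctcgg
Mcoln1, chr8:3500462-3500491 (+): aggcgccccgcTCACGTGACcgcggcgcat
Ctsd, chr7:142387908-142387937 (-): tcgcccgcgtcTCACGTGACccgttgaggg
Naglu, chr11:101070009-101070038 (+): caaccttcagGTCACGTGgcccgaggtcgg
Ctsa, chr2:164833749-164833778 (+): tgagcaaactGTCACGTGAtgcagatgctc
Lgmn, chr12:102439124-102439153 (-): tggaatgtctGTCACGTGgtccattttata
Lamp1, chr8:13159121-13159150 (+): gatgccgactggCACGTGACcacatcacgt

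Lamp1, a major glycoprotein of the lysosomal membrane, had 4 cores between 61 and 15 bases before its start, of which the 1 at 28 bases has the 8-base form. Ctsa, Ctsd, Gla and Mcoln1 had 2 each and the other 6 genes 1 each. Ctsl had the core without either longer form, 236 bases before the start. The 12 genes with a core differed in how they responded to stimulation in control-vector cells, as the map of the cores shows. Of the 16 members with a window that were more than 1.5-fold higher after stimulation, 8 had the core, of the 10 that were lower 3 had it, and of the other 7 with a value above the floor 1 had it; these shares are a description and were not tested.

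**Figure D1:**
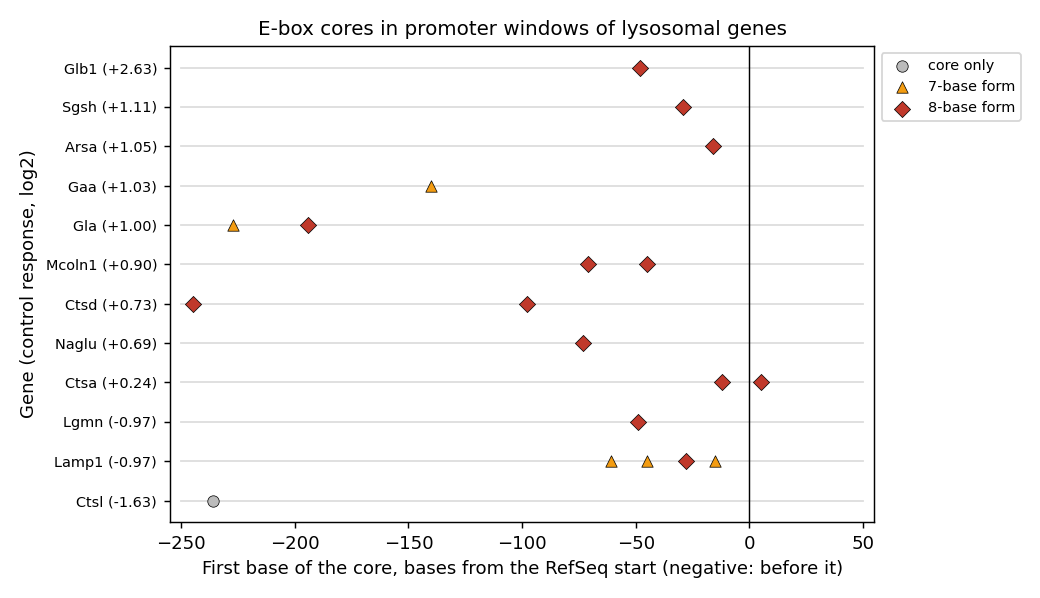
Position of each E-box core (x axis, bases from the RefSeq start, negative before it) in the 12 genes with 1, ordered by their control-vector response (log2, in brackets on the y axis). Circles are the core alone, triangles the 7-base and diamonds the 8-base form; 8 of the 12 genes have a response of 0.69 or more, while Lgmn, Lamp1 and Ctsl were lower after stimulation.

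The full windows are given for the cathepsin and the glycosidase with the highest and the lowest control-vector response, with the core in capitals. Among cathepsins these were Ctsd (highest, chr7:142387778-142388077, minus strand) and Ctsl (lowest, chr13:64370471-64370770, minus strand), and among glycosidases Glb1 (highest, chr9:114400828-114401127, plus strand) and Man2b1 (lowest, chr8:85083019-85083318, plus strand). The Man2b1 window holds no core.
Ctsd: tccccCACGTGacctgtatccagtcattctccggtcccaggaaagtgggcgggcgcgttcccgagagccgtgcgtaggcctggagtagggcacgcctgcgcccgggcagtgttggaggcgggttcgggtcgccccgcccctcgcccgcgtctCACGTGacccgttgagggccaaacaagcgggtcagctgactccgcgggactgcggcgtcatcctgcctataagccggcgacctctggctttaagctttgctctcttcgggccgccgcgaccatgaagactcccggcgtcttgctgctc
Ctsl: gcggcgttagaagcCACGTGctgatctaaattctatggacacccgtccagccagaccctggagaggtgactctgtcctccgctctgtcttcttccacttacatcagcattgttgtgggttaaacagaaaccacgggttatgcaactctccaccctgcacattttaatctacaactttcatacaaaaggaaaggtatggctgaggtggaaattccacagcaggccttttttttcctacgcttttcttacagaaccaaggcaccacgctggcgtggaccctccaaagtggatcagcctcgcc
Glb1: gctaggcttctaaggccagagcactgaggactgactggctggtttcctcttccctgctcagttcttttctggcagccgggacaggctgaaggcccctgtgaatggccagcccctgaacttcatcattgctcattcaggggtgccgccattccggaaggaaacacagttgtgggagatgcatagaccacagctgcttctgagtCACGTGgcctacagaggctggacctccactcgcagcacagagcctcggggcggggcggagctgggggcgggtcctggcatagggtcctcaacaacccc
Man2b1: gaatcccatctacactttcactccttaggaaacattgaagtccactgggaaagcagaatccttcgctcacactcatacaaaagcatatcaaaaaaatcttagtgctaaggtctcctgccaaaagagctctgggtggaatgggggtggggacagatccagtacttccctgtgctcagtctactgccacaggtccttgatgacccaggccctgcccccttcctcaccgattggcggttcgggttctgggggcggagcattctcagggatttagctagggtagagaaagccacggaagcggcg

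The microRNA of the second vector is given for its seed, the bases that pair with target messages, in capitals at positions 2 to 8. The RefSeq 5p arm lies at chr16:84714143-84714165 (+), and the labels do not say which arm the vector was meant to raise.
mmu-miR-155-5p: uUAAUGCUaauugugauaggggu

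The stimulated control array stood apart from the other 3 across all genes above the floor. Its Pearson correlation with them was 0.908 to 0.937, while the other pairs reached 0.982 to 0.989, so every value below that rests on this array rests on a single library with no second one to replace it; the response of the miR-155 cells does not use it. Macrophage markers were present, with 10 of 10 above the floor. In control cells 7 of the 10 were more than 1.5-fold lower after stimulation, against 15.1% of all genes, with a list median of -3.70 (log2). Cybb differed by -6.95, Lyz2 by -6.02 and Cx3cr1 by -5.32, while Cd68 (0.29) and Csf1r (-0.36) stayed within 1.5-fold. In miR-155 cells none of the 10 passed 1.5-fold, against 7.16% of all genes, and the median was -0.27. The sum of their unlogged values, to which Cd68 and Csf1r contribute most on the stimulated control array, was 11991 there and 28301 to 33650 on the other arrays. The same sum over 10 osteoclast markers was 702 to 824 without stimulation, 36125 in stimulated control cells and 11180 in stimulated miR-155 cells, and all 10 were above the floor on at least 1 array. Of 8 dendritic cell markers Xcr1, Clec9a, Cd209a and H2-Aa were below the floor on all arrays, and the list summed to 146 to 151 on 3 arrays and 273 on the stimulated control array. Of the 4 above the floor 1 passed 1.5-fold in control cells, against 27.5% of all genes. It was Itgax, which read 4.36 and 6.96, and the median of the 4 was 0.40. Fibroblast and osteoblast markers summed to 218 to 239, and 2 of 7 T and B cell markers were above the floor. The flat sum hides Dcn, a fibroblast marker that read 3.48, below the floor, and then 5.04 after stimulation with the control vector. The other 6 of that list stayed within 1.5-fold there. Thus 7 macrophage markers, all 10 osteoclast markers, Itgax and Dcn differed by that measure between the control-vector arrays. Between the miR-155 arrays only osteoclast markers did, 9 of the 10, with Calcr (-0.13) the exception. The part of these markers in the results was not tested. In RNA from whole cultures, fewer cells of a type and less RNA per cell cannot be told apart.

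In control-vector cells the lysosomal genes differed in both directions between the stimulated and the unstimulated array. The unstimulated cells were taken before the 72 h, so cytokines and time in culture cannot be told apart in either vector. After 72 h, 18 of the 38 members above the floor were more than 1.5-fold higher, led by acid sphingomyelinase (Smpd1, 8.90-fold), beta-galactosidase (Glb1, 6.20-fold) and arylsulfatase B (Arsb, 6.20-fold), and 10 were more than 1.5-fold lower, led by cathepsin L (Ctsl, 3.10-fold). Across all 13561 genes above the floor, 12.3% were higher and 15.1% lower by the same measure. The median log2 difference was 0.34 over the members and -0.02 over all genes. As a noise reference, 95% of the receptor probe sets differed by less than 0.48 between these arrays; these probe sets are dim, and their spread does not replace replicates. The higher members were mostly glycosidases and sulfatases, and the lower ones were mostly cathepsins, lipid enzymes and membrane proteins. Lipid enzymes had as many higher members as lower ones, 2 each, and so did membrane proteins, 3 each.

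In miR-155 cells the same treatment came with 6 members more than 1.5-fold higher and none lower, against 3.43% and 3.73% of all genes, or 7.16% either way. The median was 0.06 over the members and -0.03 over all genes. Of the 38 members 29 stayed within that comparison's noise reference of 0.41, against 11351 of all 13561 genes. The 6 were Smpd1, Glb1, Cd63, Npc2, Gla and Hexa, each of which was also higher in control cells. The 2 responses share no array. Of the 18 members higher in control cells 16 had a positive difference in miR-155 cells, and of the 10 lower ones 7 had a negative difference. The sign was also the same for 75.3% of the higher and 64.5% of the lower genes among all genes above the floor. All 28 of these members had a smaller difference in the miR-155 cells. Among all genes past 1.5-fold in control cells the difference was also smaller for 98.7% of the higher and 97.6% of the lower genes, so this is shared with most of the array. Over the 38 members the 2 responses had a Pearson correlation of 0.71 and a Spearman correlation of 0.62, against 0.47 and 0.28 over all genes; genes on the same arrays are not independent, and these are descriptions.

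**Figure D2:**
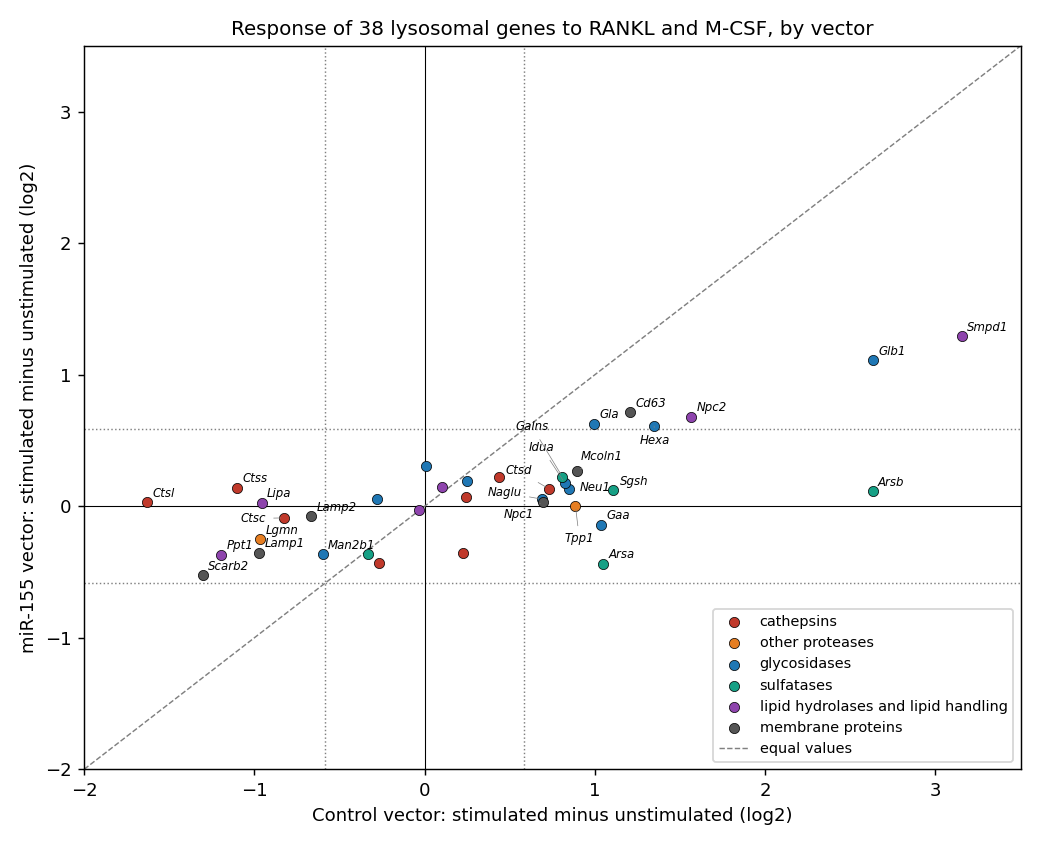
Log2 difference between stimulated and unstimulated arrays for 38 genes, control vector on the x axis and miR-155 vector on the y axis, coloured by role; dotted lines mark 1.5-fold and the dashed line equal values. Each point is 1 gene from 1 array per group. Smpd1 and Glb1 lie farthest to the upper right, Arsb far to the right at 0.11 on the y axis, and Ctsl farthest to the left.

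The levels by role are given next, as log2 values in the order unstimulated then stimulated. Levels of different genes come from different probes and are not compared.

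**Figure D3:**
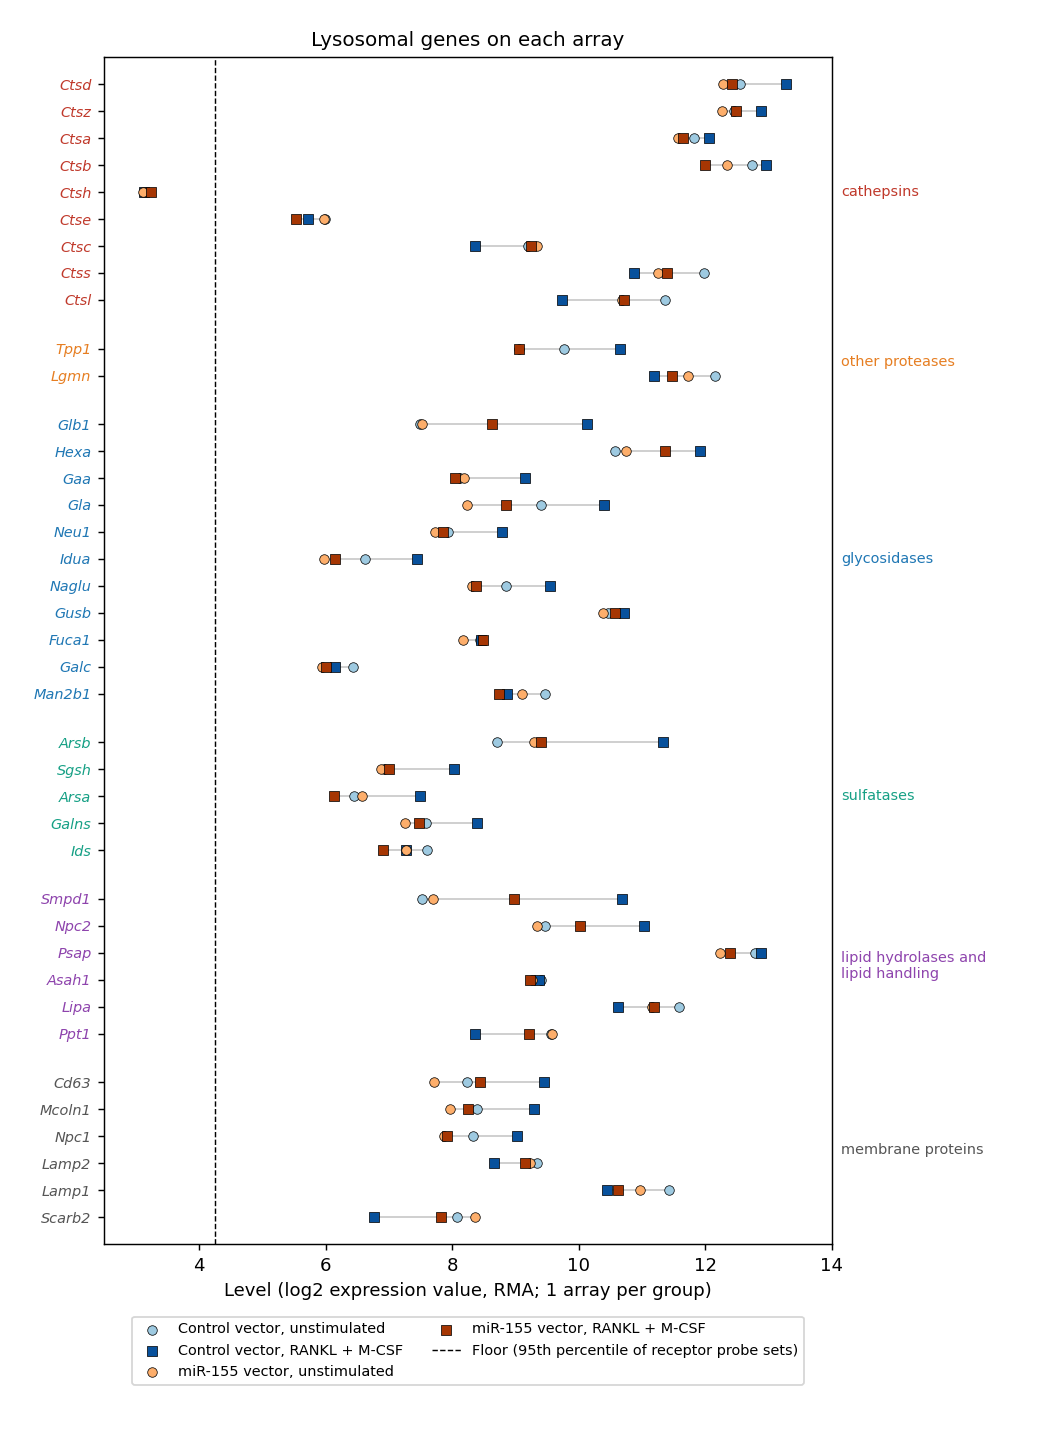
Log2 level (x axis) of each gene (y axis, grouped by role and ordered by control-vector response) on the 4 arrays; circles are unstimulated and squares stimulated, blue the control and orange the miR-155 vector, and the dashed line is the floor of 4.25. The dark blue squares of most glycosidases and sulfatases lie to the right of the other 3 points, those of Ctsl, Scarb2 and Ppt1 to the left, and Ctsh lies below the floor.

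Cathepsins, the best known lysosomal proteases, were mixed in control cells. Of 8 above the floor, 1 was higher and 3 were lower, with a median of -0.02. These shares were 12.5% and 37.5%, against 12.3% and 15.1% of all genes. Cathepsin D (Ctsd), the main aspartic protease of the lysosome, went from 12.54 to 13.27 in control cells and from 12.28 to 12.42 in miR-155 cells. Only the stimulated control array stood above the others. Cathepsin L, a cysteine protease, went from 11.36 to 9.73 in control cells and from 10.69 to 10.72 in miR-155 cells. Cathepsin S (Ctss), a cysteine protease that trims the class II invariant chain in antigen-presenting cells, went from 11.97 to 10.87 and from 11.25 to 11.39. Both were highest on the unstimulated control array and lowest on the stimulated control array, with the miR-155 arrays between. Cathepsin C (Ctsc), which activates serine proteases of immune cells, went from 9.19 to 8.37 and from 9.33 to 9.24.

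The other cathepsins stayed within 1.5-fold in both vectors. Cathepsin B (Ctsb) went from 12.73 to 12.96 in control cells and from 12.34 to 11.99 in miR-155 cells, opposite directions that both lie within the noise reference. Cathepsin A (Ctsa), a carboxypeptidase that stabilises beta-galactosidase and neuraminidase, differed by 0.24 and 0.07, and cathepsin Z (Ctsz) by 0.43 and 0.22. Cathepsin E (Ctse) differed by -0.27 and -0.43. For comparison outside the list, Ctsk, the collagen-degrading cathepsin of osteoclasts, went from 6.72 to 13.40 in control and from 4.26, next to the floor, to 11.18 in miR-155 cells, differences of 6.68 and 6.92. The differences of Ctsl were -1.63 and 0.03, and those of Ctss -1.10 and 0.14.

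The 2 other proteases went opposite ways in control cells. Tripeptidyl peptidase 1 (Tpp1) read 9.77 and 10.66 in control cells and 9.05 and 9.06 in miR-155 cells. Legumain (Lgmn), an asparaginyl endopeptidase that processes cathepsins, read 12.15 and 11.18 in control cells and 11.72 and 11.47 in miR-155 cells. Tpp1 was highest and Lgmn lowest on the stimulated control array.

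Glycosidases were mostly higher in control cells. Of 11, 7 were higher and 1 lower in control cells (63.6% and 9.09%), against 12.3% and 15.1% of all genes, with a median of 0.82. In miR-155 cells 3 were higher (27.3%) and none lower, against 3.43% and 3.73% of all genes, with a median of 0.18. Beta-galactosidase (Glb1) read 7.49 and 10.12 in control cells and 7.52 and 8.63 in miR-155 cells. The unstimulated arrays were nearly equal and both stimulated arrays stood above them. The alpha subunit of beta-hexosaminidase (Hexa), which degrades gangliosides, read 10.57 and 11.91, then 10.75 and 11.36. Alpha-galactosidase A (Gla) read 9.40 and 10.39, then 8.23 and 8.85, so both miR-155 arrays lay below both control arrays.

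Acid alpha-glucosidase (Gaa), which breaks down glycogen, read 8.12 and 9.15 in control cells and 8.18 and 8.04 in miR-155 cells. Neuraminidase 1 (Neu1) read 7.93 and 8.78, then 7.73 and 7.86. Only the stimulated control array was high for these genes. The heparan sulfate enzymes Idua (6.62 and 7.45, then 5.97 and 6.14) and Naglu (8.85 and 9.54, then 8.32 and 8.37) had both miR-155 arrays below the unstimulated control array. The control-vector differences of the other members of this group were 0.25 for Gusb, 0.01 for Fuca1, -0.28 for Galc and -0.60 for Man2b1. Man2b1, a mannosidase, was just past 1.5-fold lower and fell short of it (-0.56) with the arrays centred on their medians.

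Sulfatases, which strip sulfate groups from glycosaminoglycans and sulfatides, had 4 of 5 members higher in control cells and none in miR-155 cells, with medians of 1.05 and 0.11. Of all genes 12.3% and 3.43% were higher. Arylsulfatase B read 8.70 and 11.33 in control cells and 9.29 and 9.41 in miR-155 cells. Its second probe set gave the same pattern, with differences of 2.67 and 0.06. Arylsulfatase A (Arsa) read 6.45 and 7.50, then 6.57 and 6.13, so that its difference was 1.05 in control and -0.44 in miR-155 cells. Sulfamidase (Sgsh) read 6.93 and 8.03, then 6.87 and a value 0.12 above that, and Galns 7.58 and 8.39, then 7.25 and 7.47. Iduronate sulfatase (Ids) was slightly lower in both vectors, by -0.33 and -0.37.

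Lipid hydrolases and lipid-handling proteins held the largest gain and some of the larger drops. Acid sphingomyelinase (Smpd1), which cleaves sphingomyelin to ceramide, read 7.52 and 10.68 in control cells and 7.69 and 8.98 in miR-155 cells. Both stimulated arrays stood above both unstimulated ones. Npc2, the soluble carrier that hands cholesterol to Npc1, read 9.47 and 11.03, then 9.34 and 10.02, in the same order.

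Palmitoyl-protein thioesterase (Ppt1) read 9.56 and 8.36 in control cells and 9.58 and 9.22 in miR-155 cells. Acid lipase (Lipa), which frees cholesterol from its esters, read 11.58 and 10.62, then 11.16 and 11.19. Both were lowest on the stimulated control array. The saposin precursor Psap (0.10 and 0.15) and acid ceramidase Asah1 (-0.03 and -0.03) differed little in either vector.

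Membrane proteins divided evenly, 3 higher and 3 lower of 6 in control cells, against 12.3% and 15.1% of all genes. The structural glycoproteins were lower: Lamp1 read 11.42 and 10.45 in control cells and 10.97 and 10.61 in miR-155 cells. Lamp2 read 9.34 and 8.67, then 9.23 and 9.15. Scarb2, a membrane protein that also acts as a sorting receptor, read 8.07 and 6.77, then 8.35 and 7.83, the lowest member response in miR-155 cells (-0.52). The transporters, channel and tetraspanin were higher. The cholesterol exporter Npc1 read 8.33 and 9.03, then 7.88 and 7.91. The cation channel Mcoln1 read 8.40 and 9.30, then 7.97 and 8.24. The tetraspanin Cd63 read 8.24 and 9.44, then 7.72 and 8.43, with the stimulated array above the unstimulated one in both vectors.

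Without stimulation most lysosomal genes read slightly lower in miR-155 cells. The difference was negative for 29 of 38 members (76.3%) and for 50.1% of all genes, with medians of -0.26 and -0.00. Few were past 1.5-fold: 5 members were lower and 1 higher, against 3.14% and 1.18% of all genes, or 4.32% either way. The 5 were Gla (2.25-fold lower), Ctss (1.65-fold), Tpp1 (1.64-fold), Ctsl (1.60-fold) and Idua (1.58-fold), and the 1 higher was Arsb (1.51-fold). By role the medians were -0.57 for the 2 other proteases, -0.44 for membrane proteins, -0.26 for glycosidases, -0.25 for cathepsins, -0.13 for lipid enzymes and -0.05 for sulfatases. Within the noise reference of 0.37 lay 22 of the 38 members, against 11556 of all 13561 genes. Members not past 1.5-fold included Psap (-0.55), Naglu (-0.53), Cd63 (-0.52), Lamp1 (-0.46) and Npc1 (-0.45).

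With stimulation 18 of 38 members were more than 1.5-fold lower in miR-155 cells and 4 were higher, against 13.6% and 12.3% of all genes, with a median of -0.53 over the members. The stimulated control array also enters the control-vector response, so the values of both comparisons depend on each other. The lower members included Arsb (3.80-fold), Smpd1 (3.23-fold), Tpp1 (3.03-fold), Gla (2.91-fold), Glb1 (2.81-fold), Arsa (2.57-fold) and Idua (2.47-fold). Cathepsin B (1.96-fold) was also lower here, although neither response of it passed 1.5-fold. The 4 higher members were Scarb2 (2.09-fold), Ctsl (1.98-fold), Ctsc (1.84-fold) and Ppt1 (1.81-fold). By role, 4 of 5 sulfatases, 6 of 11 glycosidases and 3 of 6 membrane proteins were lower, while cathepsins split into 2 higher and 2 lower.

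**Figure D4:**
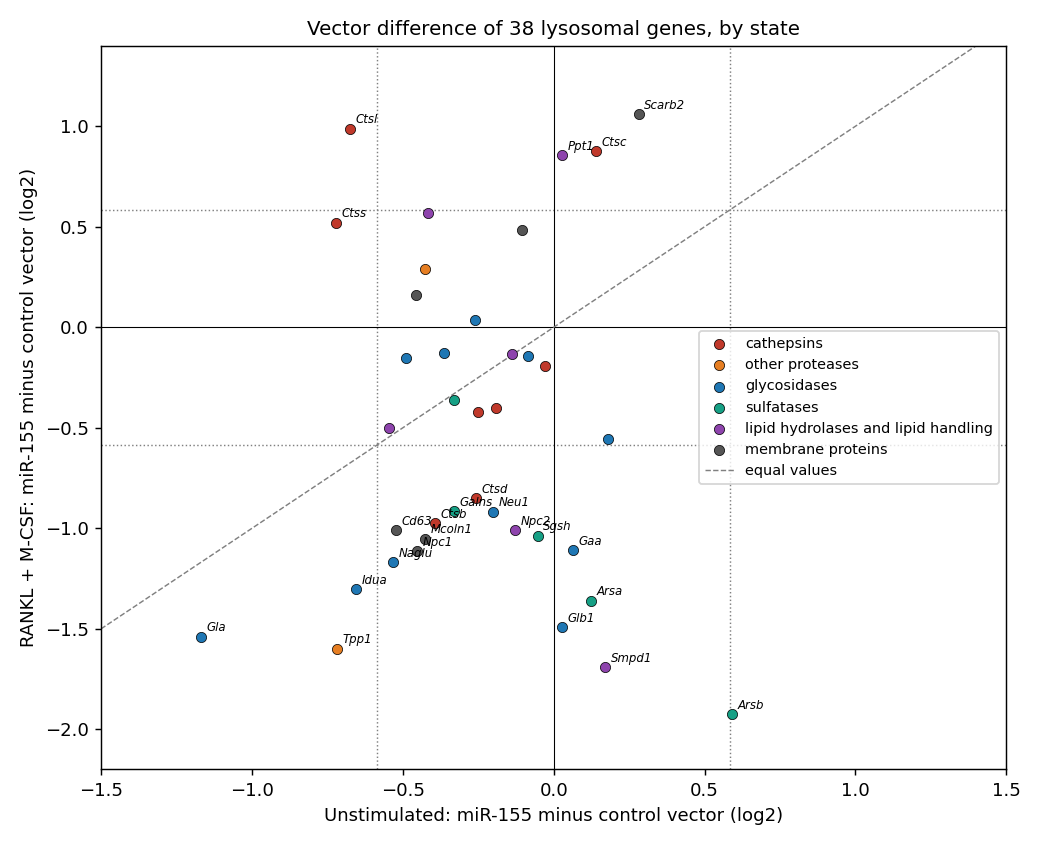
Log2 difference between miR-155 and control vector for 38 genes, unstimulated arrays on the x axis and stimulated arrays on the y axis, coloured by role; dotted lines mark 1.5-fold and the dashed line equal values. Gla, Tpp1 and Idua lie below -0.58 on both axes, Arsb is at 0.59 without and -1.93 with stimulation, and Ctsl and Ctss are negative without and positive with stimulation.

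The 2 vector differences share no array. Over the 38 members their Pearson correlation was 0.0090 and their Spearman correlation 0.0058, against 0.14 and 0.11 over all genes, as a description. Gla, Tpp1 and Idua were past 1.5-fold lower in miR-155 cells in both states. The miR-155 response minus the control response was past 1.5-fold negative for 16 members and positive for 9, against 13.9% and 14.5% of all genes. The noise reference of this difference, 0.64, lies above 1.5-fold (0.58). Within it lay 19 of the 38 members, against 10185 of all 13561 genes. The most negative members were Arsb (-2.52), Smpd1 (-1.86), Glb1 (-1.52) and Arsa (-1.49), and the most positive Ctsl (1.66), Ctss (1.24) and Lipa (0.98).

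The additive limma model over the 4 arrays, with stimulation and vector as terms, was the 1 test the design allowed. Its residual error is the disagreement between the vectors, with 1 residual degree of freedom. The model also draws each gene's error toward a value estimated over all genes, so SEs and p-values rest partly on other genes. At a Benjamini-Hochberg adjusted p of 0.05 it called no member and no gene for either term (0.0% of 13561). At an unadjusted p under 0.05 it held 7 members for stimulation, 6 higher (Smpd1, Glb1, Cd63, Npc2, Gla and Hexa) and 1 lower (Scarb2), against 3.98% higher and 3.54% lower of all genes. The lowest adjusted p of any member by limma was 0.649, and 0.605 to 0.719 over the alternatives, where it was not always that of the same gene. Several members, all of these 7 included, shared the value of 0.649. Smpd1 among them had a mean difference of 2.22 (SE 0.50), higher in 2 of 2 vectors. For the vector 8 members were lower and none higher at that level, namely Gla, Tpp1, Idua, Naglu, Cd63, Npc1, Mcoln1 and Ctsb, against 2.71% and 1.16% of all genes, or 3.86% either way. Gla had a mean difference of -1.36 (SE 0.21) and an adjusted p by limma of 0.889 (0.855 to 0.944 over the alternatives), a value that other members shared, lower in 2 of 2 states. Neither set passed the adjustment.

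Lysosomal genes outside the list, grouped by role, were measured for comparison. Of 25 genes listed as other hydrolases, 20 were analysed here and 19 were above the floor. This list also holds the activator protein Gm2a and the membrane-anchored Glmp. In control cells 7 of the 19, Gm2a and Glmp included, were higher and 1 was lower (36.8% and 5.26%), against 12.3% and 15.1% of all genes. The median of the 19 was 0.43. In miR-155 cells none of them was past 1.5-fold, against 7.16% of all genes. Gm2a, the activator protein that presents gangliosides to hexosaminidase, was higher by 1.59 in control cells and differed by 0.53 in miR-155 cells, beside 1.35 and 0.61 for Hexa. Pld3 (0.92 and 0.20) and the membrane-anchored Glmp (0.91 and 0.04) had the same form, and the mannosidase Man2b2 differed by 0.65 and -0.57.

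Of 26 other lysosomal membrane proteins 23 were above the floor. In control cells 6 were higher and 4 lower (26.1% and 17.4%), against 12.3% and 15.1% of all genes. In miR-155 cells 2 were higher and 2 lower (8.70% each), against 3.43% and 3.73%. The chloride exchanger Clcn7, needed for acid secretion by osteoclasts, read 8.18 and 11.61 in control cells and 7.69 and 9.79 in miR-155 cells. Its partner Ostm1 read 7.94 and 9.69, then 7.46 and 7.93. The channel Mcoln2 read 7.34 and 5.44, then 5.08 and 4.88, the opposite direction to Mcoln1 in control cells, and the transporter Slc15a3 differed by -1.54 and -0.72.

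Of 13 genes that sort and activate lysosomal enzymes, 1 was higher and 1 lower in control cells. That is 7.69% each, against 12.3% and 15.1% of all genes. In miR-155 cells 2 were higher and 3 lower (15.4% and 23.1%), against 3.43% and 3.73%. Gnptab, which makes the mannose 6-phosphate tag on hydrolases, read 8.40 and 10.58 in control cells and 8.16 and 9.02 in miR-155 cells. Nagpa, which uncovers that tag, differed by -0.75 and -0.84. The mannose 6-phosphate receptor Igf2r read 9.88 and 10.42, then 8.75 and 9.44, with both miR-155 arrays below the matching control array by -1.13 and -0.99. The adaptor Gga1 differed by 0.44 and -0.65. The plot of all lists sets these shares beside those of all genes.

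**Figure D5:**
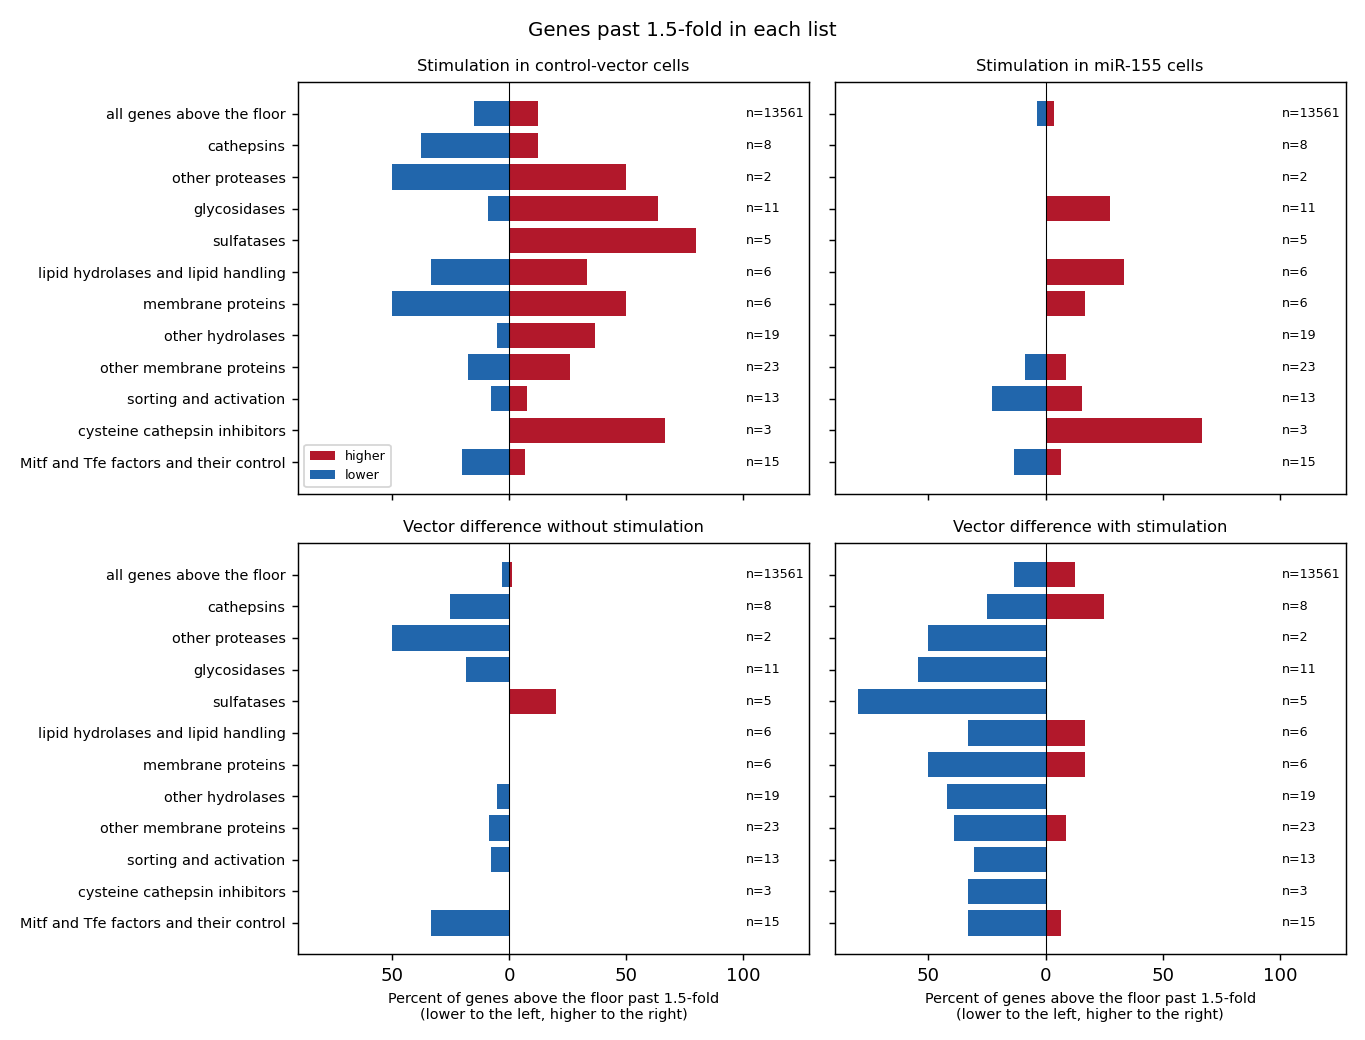
Percent of genes above the floor that were more than 1.5-fold higher (red, to the right) or lower (blue, to the left) for each role group, each list of other lysosome genes and all genes, in the 4 comparisons of 2 arrays; n is the number of genes above the floor. Sulfatases and glycosidases have the longest red bars of the member groups in control-vector cells, and in miR-155 cells the red bars are shorter or absent for every member group but the lipid enzymes, where 2 of 6 were higher in both.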

How the data were processed

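RNA from RAW 264.7 cells was hybridised to 4 arrays. The authors deposited log2 expression values for each probe set, and the submitters' processing notes list RMA and Partek without versions. The genome build is not given in the sources used here. Arrays give no read depth, so their number limits the precision, and RMA makes the arrays' distributions alike, which hides any shift in overall RNA content. The platform annotation gave 1 symbol for 21789 of 35557 probe sets, several for 1621 and none for 12147.

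A gene was kept when it exceeded the floor on any array. Differences of log2 values were counted past 1.5-fold. An additive model of vector and stimulation was fitted to 13561 genes with limma 3.58.1 in R 4.3.3. Tested on simulated additive data of 13561 genes, it found 94% of 50 genes shifted by 1 (log2) for stimulation and 98% for the vector. For both terms all 50 genes were found at each shift of 2, 3 and 4. False calls, counted once per term over all genes not shifted for it, numbered 10 and 15. Every simulated gene had the same noise, and the simulation held no interaction, which is the only source of the residual error here. The shares found therefore do not give the power of the model on these arrays. Motifs were counted in Python 3.11.15. All members were named, and up to 4 genes of each other list by their largest difference. Members and lists were chosen with earlier results of these data known. Alternatives were renewed normalization, other floors, probe sets, folds and limma error models.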

Additional observations from a re-analysis of the deposited data

Results flagged for a closer look

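These genes had opposite directions in 2 comparisons that share no array, with both values past the noise reference of their comparison; none of the differences was tested. For stimulation, Arsa differed by 1.05 in control cells and by -0.44 in miR-155 cells. For the vector, Ctsl differed by -0.68 without and 0.99 with stimulation. Ctss differed by -0.72 and 0.52 in the same 2 states. Lipa differed by -0.42 and 0.57. Arsb went the other way, at 0.59 without and -1.93 with stimulation.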

How the results depend on the processing

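Renewed quantile normalization, centring on array medians, no filter, a floor at the 99th percentile, other probe sets of a gene, and values set to the floor kept every count of members past 1.5-fold within 1.5 times, each member median within 0.1 (log2), and reversed no member past 1.5-fold. Past 2-fold 9 of 38 members were higher and 4 lower for stimulation in control cells, against 5.73% and 6.92% of all genes. In miR-155 cells 2 were higher and 0 lower, against 1.15% and 0.18%. For the vector without stimulation 0 were higher and 1 lower, against 0.07% and 0.55%. For the vector with stimulation 1 was higher and 14 lower, against 5.60% and 5.55%. For the difference of the responses 2 were higher and 5 lower, against 6.63% and 4.64%. limma called 0 genes for stimulation, but 2 (Ctsk and Acp5) after renewed normalization, after centring, with the higher floor, with the lowest-mean probe set or with an intensity trend, and 1 (Ctsk) with the mean of probe sets; it called no member in any of these. The cause was not tested. With the promoter windows limited to the 250 bases before the start, the members' motif shares were equal. No paired analysis was possible because each group has 1 array with no replicate number, and for the same reason no replicate could be left out. Values near 1.5-fold have no error to judge them by.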

Other observations

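Of 9 listed inhibitors of cysteine cathepsins, 3 were above the floor. Cystatin B (Cstb) read 8.92 and 10.95 without and with stimulation in control cells and 8.73 and 9.46 in miR-155 cells, and cystatin F (Cst7), an inhibitor of cathepsin C, read 4.94 and 6.95, then 5.29 and 6.37. Both stimulated arrays were above both unstimulated ones for these genes, while cystatin C (Cst3) differed by -0.13 and -0.19.

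Of 15 genes for the Mitf and Tfe factors and their control, 3 were lower and 1 higher in stimulated control cells. These shares were 20% and 6.67%, against 15.1% and 12.3% of all genes. In unstimulated miR-155 cells 5 were lower (33.3%, against 3.14% of all genes) and none higher (against 1.18%). The 5 were Fnip2 (-1.72), Tfec (-1.39), Fnip1 (-0.99), Flcn (-0.70) and Mitf (-0.63), of which Fnip1, Fnip2 and Flcn encode the folliculin complex that restrains Tfeb and Tfe3. Fnip1, Flcn, Mitf and Tfeb were named after their values were seen. Tfeb read 7.18 and 6.16 in control cells and 7.39 and 6.68 in miR-155 cells. Rragb lay below the floor on the stimulated control array, and Lamtor1 differed by 0.64 and -0.69 in the 2 vectors.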
